A study of Mus musculus with 2 samples.

Results

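Neuroblasts with little cell cycle RNA were 414 of 3915 cells kept from the adult mouse subventricular zone, 209 of 1840 in library 1 and 205 of 2075 in library 2. They were chosen from the counts of 18 genes, in units per 10000 unique molecular identifiers (UMIs, tags that let each captured transcript be counted once). A cell had to have at most 10% of its UMIs from mitochondrial genes. The summed level of the neuroblast genes Dcx, Dlx6os1, Sp8, Gad2 and Stmn2 had to be at least 10. The sum of the mitosis genes Mki67, Top2a, Cdk1, Nusap1, Ube2c, Cenpf, Hmmr and Ccnb1 had to be below 3, and that of the astrocyte and stem cell genes Slc1a2, Aldoc, Ntsr2, Cldn10 and Gja1 below 15. These levels chose the cells, so they are given as a description. Any other gene measured in the same cells is a description too, and no test was made.

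Neuroblasts are the migrating young neurons of the adult brain. They are born from dividing progenitors in the subventricular zone beside the lateral ventricles, travel in chains along the rostral migratory stream and mature in the olfactory bulb, mostly into GABA-releasing interneurons. Leaving the cell cycle, loss of the progenitor and Notch programme, and growth of a microtubule-filled leading process go together in this lineage.

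The libraries were made from male C57BL/6 mice, with 1 library of tissue pooled from 8 mice aged 22 months and 1 of tissue pooled from 4 mice aged 2 months. Cells of the microdissected lateral zone were sorted as positive for GLAST, a glutamate transporter of stem cells and astrocytes, and as negative for O4 (oligodendrocyte lineage), Ter119 (erythroid) and CD45 (leukocyte). For each library 8000 sort events entered a droplet workflow that reads the 3′ ends of transcripts. The cells carry a library number that no label ties to an age, so values are given for library 1 and library 2 and no age is compared.

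Library 1 had 1849 barcodes with 10440891 UMIs and library 2 had 2088 with 13330251, before 9 and 13 barcodes were removed for their mitochondrial share. Of the barcode sequences, 4 occurred in both libraries, and 1 of those was that of a cell chosen here. The Scrublet doublet caller marked 15 barcodes of library 1 and 11 of library 2, of which 0 and 1 were among the neuroblasts with little cell cycle RNA. Animals were pooled and each age had 1 library, so intervals (95%) cover counting error only.

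These neuroblasts were small in RNA. They made up 11.4% of the cells of library 1 (exact Clopper-Pearson interval 9.94 to 12.9%) and 9.88% of library 2 (8.63 to 11.2%). Their median was 2883 UMIs in library 1 and 3274 in library 2, against 4805 and 6412 in the 1507 and 1681 cells without neuroblast genes, called non-neuroblast cells below. The 109 and 184 dividing neuroblasts, which meet the same criteria except that their mitosis genes reach 3, had medians of 5612 and 5881 UMIs. Because of this depth, 130 cells of library 1 and 105 of library 2 had under 3333 UMIs, and for them the mitosis criterion meant no such UMI at all. In 187 and 160 of the chosen cells the mitosis sum was 0.

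The neuroblast sum of the chosen cells ranged from 10.4 to 87.8 per 10000 UMIs in library 1 (median 42.6) and from 11.2 to 99.1 in library 2 (median 42.1), so most cells lay far above the limit of 10. Just inside it, between 10 and 12, were 4 and 3 cells, and just outside, between 8 and 10, were 6 and 8. The mitosis limit was more crowded, with 14 and 33 cells inside between 2 and 3 and 16 and 29 cells outside between 3 and 4. Near the glial limit, 11 and 4 cells lay inside between 12 and 15 and 3 and 1 outside between 15 and 18. Of the 5 neuroblast genes of the rule, 45 cells of library 1 and 64 of library 2 had all 5, and 91 and 91 had 4.

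The defining neuroblast markers were high in the chosen cells, as the label says. Stmn2, a stathmin that regulates microtubules in growing neurites, had 1415 CPM (UMIs of a gene per summed total, scaled to 1000000) in library 1 and 1503 in library 2, against 18.8 and 27.4 in non-neuroblast cells. Dcx, which encodes doublecortin and binds the microtubules of migrating neurons, had 707 and 716 CPM, against 33.9 and 54.1. Gad2, a GABA-synthesizing enzyme, had 397 and 437 CPM, against 11.3 and 21.6. Each of these 3 genes was part of the rule. Dlx6os1, the long noncoding RNA of the Dlx5 and Dlx6 locus, and Sp8, a transcription factor of olfactory interneurons, were the other rule genes, with 1447 and 1159 CPM for Dlx6os1 and 230 and 272 CPM for Sp8.

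Both markers that the rule did not use were also higher in the chosen cells. Runx1t1, a transcriptional corepressor, had 157 and 119 CPM, against 8.85 and 4.11 in non-neuroblast cells, a ratio of 17.8 (13.2 to 24) in library 1 and 29.0 (20.1 to 42.3) in library 2. Prokr2, a prokineticin receptor needed for migration to the olfactory bulb, rested on 33 and 13 UMIs, with 48.0 and 17.6 CPM, against 1.11 and 0.525. Its ratio was 43.4 (20.9 to 98.7) and 33.6 (11.9 to 108).

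Detection in single cells followed the same order. After each cell was thinned to 2000 UMIs, Stmn2 was found in 87.0% of 185 cells in library 1 and 92.8% of 194 in library 2, with 24 and 11 shallower cells left out (93.3% and 97.6% unthinned). Dcx was found in 75.1% and 79.4% (83.7% and 88.3% unthinned), Gad2 in 48.1% and 56.7%, Runx1t1 in 25.9% and 21.6% and Prokr2 in 10.8% and 4.64%. In cells with oligodendrocyte genes, 97 in library 1 and 8 in library 2 after thinning, the shares in library 1 were 2.06% for Dcx, 3.09% for Stmn2 and 5.15% for Gad2, and none of the 8 cells of library 2 had a UMI of these genes, which allows up to 37.5%. Runx1t1 and Prokr2 were found in 0 of the 97 cells of library 1, which allows up to 3.09%. Those cells had median depths of 4255 and 5119 UMIs. They belong to the non-neuroblast cells, whose summed neuroblast genes lie below the limit that the chosen cells had to reach. The differences in Dcx, Stmn2 and Gad2 were thus largely set by the rule and are no separate result. Runx1t1 and Prokr2 are outside the rule, and in library 1 their shares in the chosen cells lay above 3.09%.

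**Figure D1:**
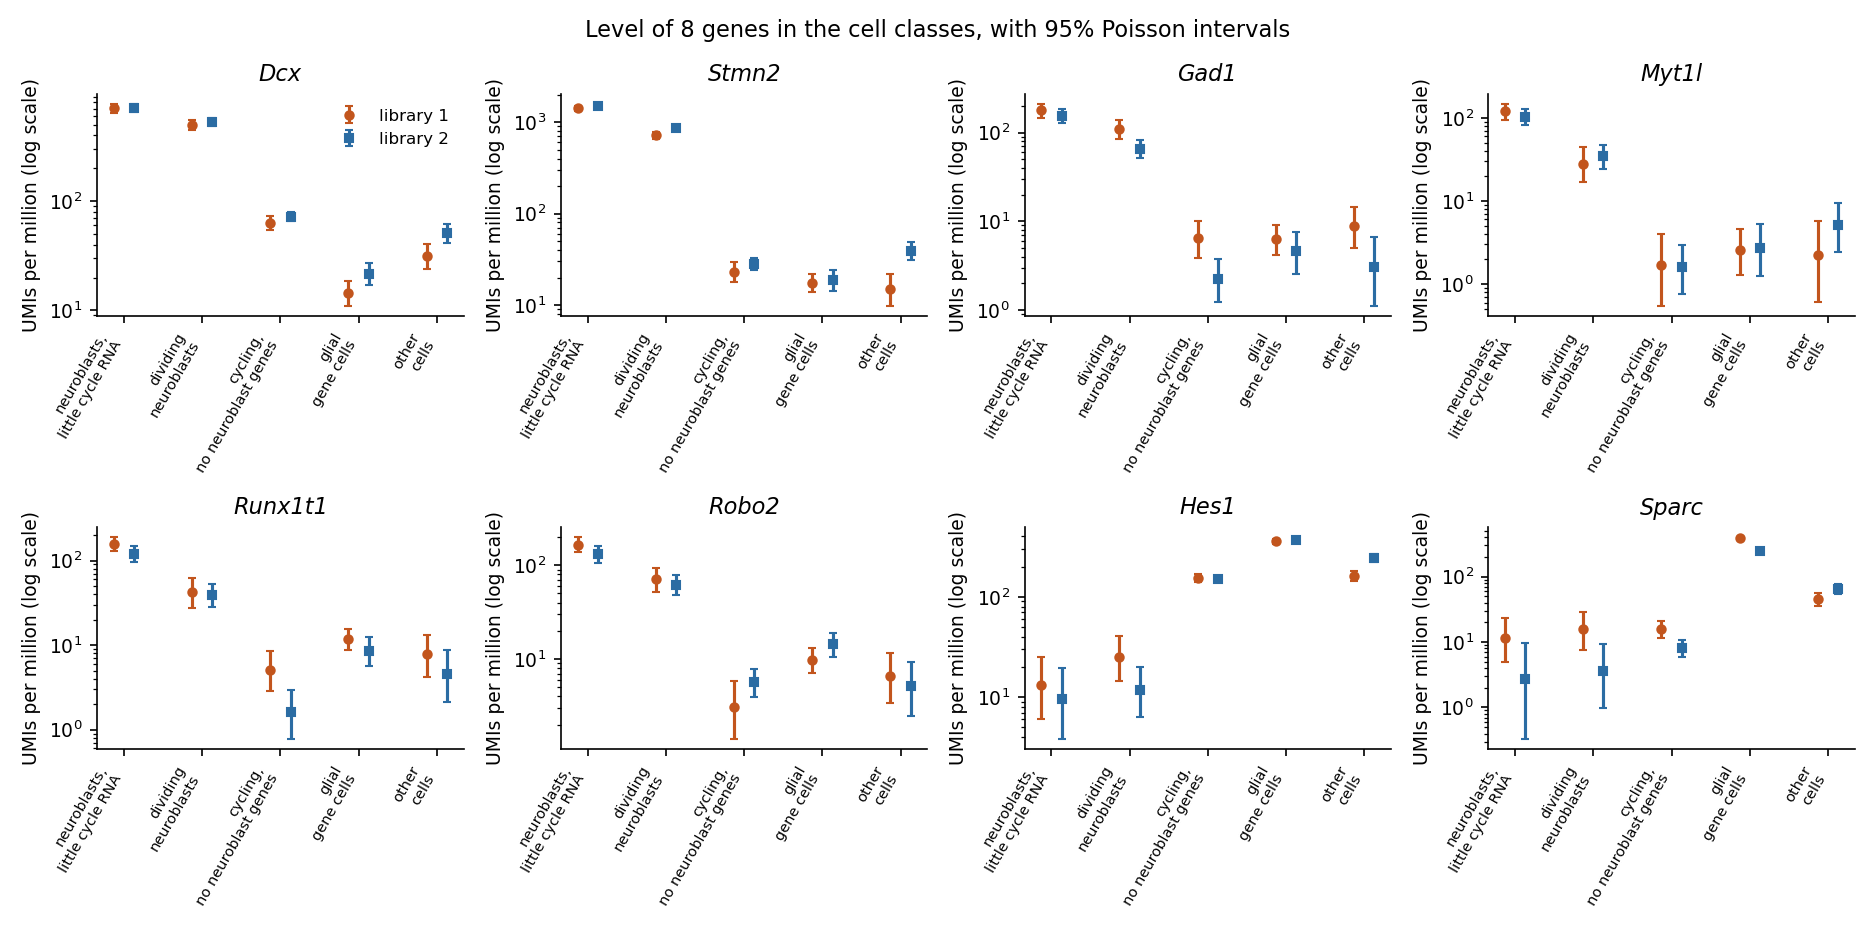
Level of 8 genes in 5 classes of cells, in CPM of summed UMIs on a log axis, for library 1 and library 2; points are values and bars exact 95% Poisson intervals. Dcx, Stmn2, Gad1, Myt1l, Runx1t1 and Robo2 are highest in the neuroblasts with little cell cycle RNA, while Hes1 (13.1 and 9.49 CPM) and Sparc (11.6 and 2.71 CPM) are near the bottom there.

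Markers of most other cell types were low in the chosen cells, and the sum of the oligodendrocyte precursor list was not lower in library 2. The 10 oligodendrocyte markers summed to 376 CPM in library 1 and 82.7 CPM in library 2, with Mag at 0 in library 2, and no cell reached 20 per 10000 UMIs (highest 17.4 and 7.28). Of the 10 oligodendrocyte precursor markers, 6 had a UMI in library 1 and 10 in library 2, with Pdgfra, Cspg4, Gpr17 and Bmp4 at 0 in library 1, and 1 cell of library 2 reached 96.0 per 10000. The precursor list summed to 162 and 206 CPM in the chosen cells, against 223 and 162 in non-neuroblast cells. Its 2 members at least 2-fold higher were Vcan, a matrix proteoglycan, with 96.1 and 100 CPM, against 20.4 and 18.7, and Cacng4, with 46.6 and 55.6, against 11.2 and 12.4. Of the precursor markers with at least 50 UMIs on one side, 4 of 6 in library 1 and 6 of 8 in library 2 were lower. In each library 3 of them were 2-fold lower. The median log2 ratio of these markers was -1.13 and -0.90, beside -0.19 and -0.15 over all genes with that many UMIs. The 17 markers of mature neurons summed to 75.7 and 32.5 CPM, with 9 and 7 detected and Drd1, Drd2 and Slc17a7 at 0 in both. The microglial list had 4.37 and 6.78 CPM, with 2 and 5 of 10 markers detected and Cx3cr1 at 0 in both libraries. The endothelial list had 5.82 and 5.42 CPM with 3 of 10 detected and Cldn5 at 0, the pericyte list 5.82 and 9.49 CPM with 2 and 4 of 10, and the fibroblast list 18.9 and 5.42 CPM with 2 of 10 and Dcn and Col1a1 at 0. The ependymal list had 21.8 and 27.1 CPM, with 5 and 8 of 10 detected. The stem cell and astrocyte markers, 5 of which the rule limits, summed to 629 and 470 CPM, and 1 and 0 cells reached 20 per 10000.

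Slc1a3, the gene of the GLAST antigen used for sorting, had 150 CPM in library 1 and 165 in library 2, against 1203 and 924 in non-neuroblast cells. After thinning it was found in 19.5% and 19.6% of the chosen cells, against 94.3% and 93.4% of cells with glial genes. In the cells with oligodendrocyte genes it was found in 24.7% of 97 and 50.0% of 8 cells (15.7 to 84.3% for the 8). The shares in the chosen cells were no higher than these and are not read as expression, and free RNA was not measured.

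Against non-neuroblast cells, fewer genes were higher in the chosen neuroblasts than were lower among genes with enough UMIs. A gene counts as measured with at least 50 UMIs on one side and as higher or lower at 2-fold. In library 1, 900 of 10380 measured genes (8.67%) were higher and 2596 (25%) lower. In library 2, 856 of 10615 (8.06%) were higher and 2247 (21.2%) lower. With no count minimum 5898 were called higher and 2826 lower in library 1 and 6164 higher and 2431 lower in library 2. A sum of 0 was set to 3 counts. A gene without a UMI in the chosen cells was thus called higher where the larger reference sum held only a few UMIs. The balance of calls with no minimum therefore cannot be read. Of 10115 genes measured in both libraries, 545 were higher in both, which is 61.7% of the 884 higher ones of library 1 and 69.1% of the 789 of library 2. A further 1627 were lower in both, 65.8% of the 2472 of library 1 and 76.8% of the 2119 of library 2, and 9 were past 2-fold in opposite directions. Both comparisons use separate cells and separate references.

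A gene reaches that minimum most easily through the larger summed total of the non-neuroblast cells. A stricter minimum, added after the data were seen, needed 50 UMIs on one side after both were scaled to the smaller summed total. With it 404 genes were higher and 489 lower in library 1 and 357 and 397 in library 2. A gene could still pass through the non-neuroblast cells alone. The median log2 ratio over all measured genes was -0.19 in library 1 and -0.15 in library 2, and is the background for each list below.

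**Figure D2:**
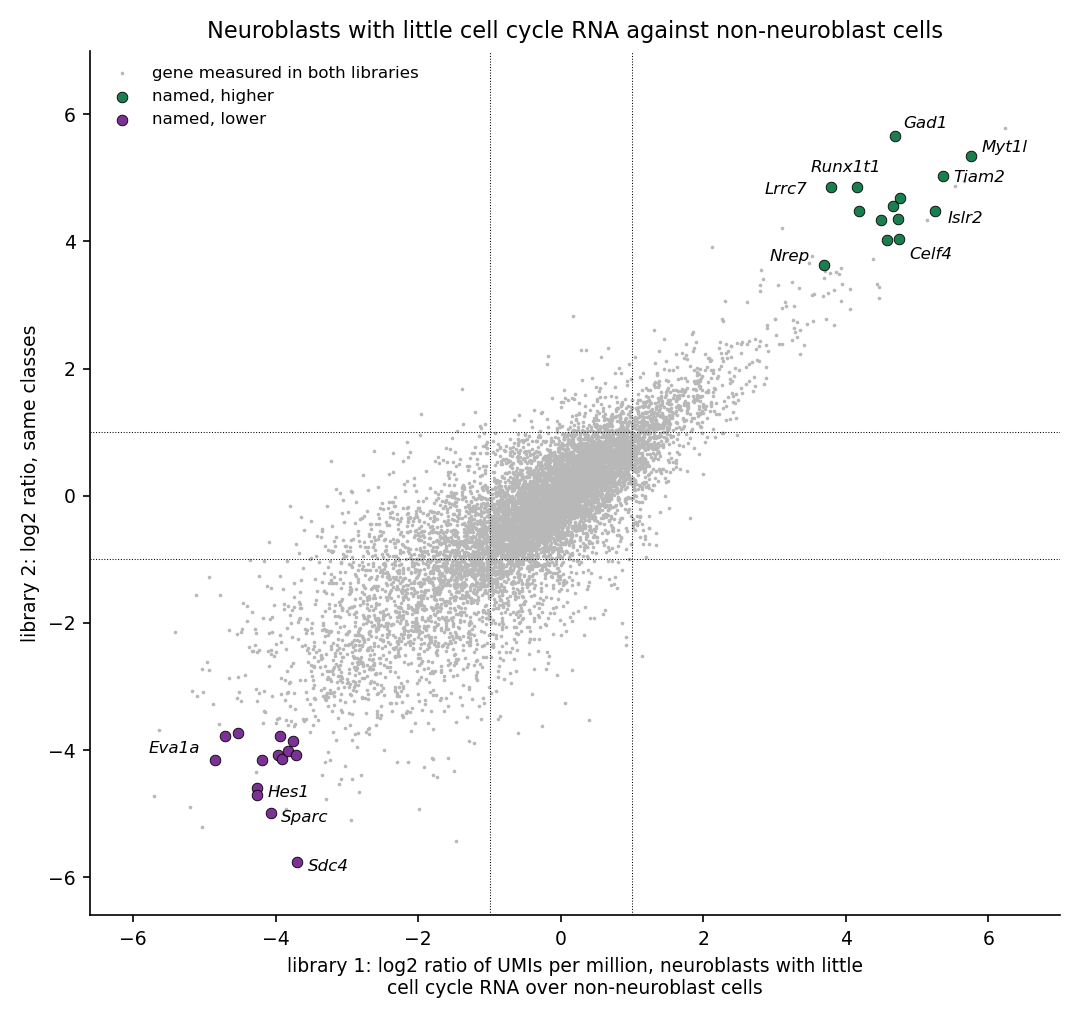
Log2 ratio of CPM in neuroblasts with little cell cycle RNA over non-neuroblast cells in library 1 (x axis) and library 2 (y axis), each point being 1 of the 10115 genes measured in both. The named genes are coloured, with the 14 highest in the upper right (Myt1l at 5.75 and 5.34) and the 14 lowest in the lower left (Hes1 at -4.27 and -4.60).

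Myt1l (chr12:29528384-29923213, GRCm38) led the genes outside the rule. It encodes a zinc finger factor that represses non-neuronal genes in neurons, and it had 119 CPM in library 1 and 103 in library 2, against 2.21 and 2.54 CPM in non-neuroblast cells. The ratio was 53.9 (32.8 to 92.9) in library 1 and 40.6 (26.2 to 64.7) in library 2, from 82 and 76 UMIs in 62 and 56 cells. Gad1, the other GABA-synthesizing enzyme, had 178 and 155 CPM, against 6.86 and 3.06, a ratio of 25.9 (18.9 to 35.7) and 50.5 (34.3 to 76.0).

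Several of the other leading genes code for proteins of growing or migrating neurons. Tiam2, an exchange factor for the GTPase Rac, had 403 and 283 CPM, against 9.85 and 8.66. Robo2, a receptor for the repellent Slit proteins that steer migrating neuroblasts, had 166 and 131 CPM, against 6.97 and 8.04, a ratio of 23.8 (17.3 to 32.9) and 16.3 (12.2 to 22.0). Shtn1, which encodes shootin and couples actin flow to adhesion in growth cones, had 240 and 244 CPM, against 9.52 and 10.3. Its RNA was not particular to neurons in these libraries, since 20.6% and 37.5% of cells with oligodendrocyte genes had it after thinning, beside 36.8% and 35.1% of the chosen cells.

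Islr2, an axon guidance protein, had log2 ratios of 5.26 and 4.48, and Nav3, a microtubule-binding navigator protein, of 4.5 and 4.34. Rem2, a small GTPase that acts on calcium channels, had 4.74 and 4.35, and Synpr, a synaptic vesicle protein, 4.18 and 4.49. The RNA-binding protein Celf4 had 4.75 and 4.05, the postsynaptic scaffold gene Lrrc7 3.80 and 4.85, Nrep 3.69 and 3.63 and the unnamed transcript E130006D01Rik 4.76 and 4.69. All 14 leading genes, with Runx1t1 among them, were at least 12-fold higher in both libraries.

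The promoters of 2 of these genes are shown because both code for parts of the neuroblast identity, a neuronal repressor and a GABA enzyme, and because Dlx homeodomain factors, which are abundant in these cells, bind TAATTA. The windows hold 250 bases before and 50 after an annotated start, from RefSeq on GRCm38.p6, and capitals mark TAATTA, which reads the same on both strands. The Myt1l window is chr12:29534972-29535271 and the Gad1 window chr2:70561879-70562178, both on the plus strand. Myt1l has 5 annotated windows, and the one shown was chosen because it alone holds the motif; the other 4 do not.
Myt1l: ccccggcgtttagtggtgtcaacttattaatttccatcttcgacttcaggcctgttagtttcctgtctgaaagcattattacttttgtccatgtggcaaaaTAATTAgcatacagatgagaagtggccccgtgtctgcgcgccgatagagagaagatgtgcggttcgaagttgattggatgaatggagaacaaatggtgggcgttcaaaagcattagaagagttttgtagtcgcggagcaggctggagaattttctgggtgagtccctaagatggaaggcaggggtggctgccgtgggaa
Gad1: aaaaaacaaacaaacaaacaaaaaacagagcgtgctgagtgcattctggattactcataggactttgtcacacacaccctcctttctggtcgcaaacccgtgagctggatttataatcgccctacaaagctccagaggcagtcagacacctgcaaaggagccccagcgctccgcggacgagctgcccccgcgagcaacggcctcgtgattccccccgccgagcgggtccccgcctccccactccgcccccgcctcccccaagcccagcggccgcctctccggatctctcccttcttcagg
Promoters were found for 9 of the 14 leading genes, 20 windows in all, and 1 of the 20 (5%) held TAATTA, that of Myt1l above. Among all 32851 windows of this length, 5.29% held it. The Gad1 window had none, which says nothing of Dlx binding elsewhere at that gene.

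The genes of the microtubule skeleton were mostly higher. Of 36, all of them measured, 24 were higher and 3 lower at 2-fold in library 1 and 23 higher and 2 lower in library 2. The median log2 ratio was 1.76 and 1.5. Over all measured genes 8.67% and 8.06% were higher. Tuba1a, the alpha tubulin of young neurons, had 5682 and 5155 CPM, against 1660 and 1944 in non-neuroblast cells. Tubb3, the neuronal beta tubulin, had 1290 and 1188 CPM, against 83.8 and 118. Map1b, which stabilizes microtubules in growing axons, had 1057 and 945 CPM, against 69.2 and 113, and the growth cone protein gene Basp1 756 and 770, against 78.6 and 97.5.

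Guidance and adhesion genes held calls in both directions, beside 8.67% and 8.06% higher and 25% and 21.2% lower over all measured genes, and their lower counts lay near those shares. Of 42 guidance and migration genes, 32 were measured in library 1, with 13 higher and 7 lower, and 28 in library 2, with 12 higher and 7 lower. Their medians were 0.16 and 0.47, and that of library 1 was -0.038 with a glial limit of 5. Erbb4, a neuregulin receptor, had 80.1 and 44.7 CPM, against 3.43 and 2.62, and Plxna4, a semaphorin receptor, had 84.4 and 43.4, against 3.10 and 2.19. Cdk5r1, the activator of the migration kinase Cdk5, had 348 and 331 CPM, against 43.5 and 48.0. Slit2, a ligand of Robo receptors, was lower, with 7 and 2 UMIs in all the chosen cells.

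Of 27 adhesion genes, 18 were measured in each library, with 7 higher and 5 lower in library 1 and 9 higher and 4 lower in library 2. Their median was -0.19 in library 1 and 0.81 in library 2. In library 2 it was -0.29 after thinning, and in library 1 it was 0.0092 with a minimum of 20 UMIs and 1.35 with no minimum. With 50 UMIs on one side after scaling to the smaller summed total, the median of library 1 was 1.55. Cd24a, a surface glycoprotein used to sort neuroblasts, had 2173 and 2107 CPM, against 270 and 308. Igfbpl1 had 1226 and 1280 CPM, against 85.7 and 199. Ncam1, the carrier of polysialic acid on chain-migrating cells, had 608 and 737 CPM, against 167 and 146, and St8sia2, an enzyme that adds that sugar, 72.8 and 90.8, against 6.31 and 10.2. Alcam was lower, with 10.2 and 4.07 CPM, against 65.6 and 51.1.

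Identity genes of GABA neurons went both ways. Of 20 GABA neuron genes, 14 were measured, with 7 higher and 5 lower in each library. The shares over all measured genes were 8.67% and 8.06% higher and 25% and 21.2% lower, so the higher count lay further above its share. Dlx2, a homeobox gene of the ventral forebrain, had 1055 and 906 CPM, against 215 and 322 in non-neuroblast cells, and Dlx5 had 348 and 305, against 20.9 and 32.2. Gsx2, which marks earlier progenitors, was among the lower ones, at 14.6 and 20.3 CPM, against 62.9 and 99.1.

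Of 34 olfactory interneuron fate genes, 16 were measured in library 1 and 19 in library 2, with 12 higher and 1 lower in each, and medians of 1.78 and 1.41. All measured genes had 8.67% and 8.06% higher and 25% and 21.2% lower. Meis2 had 1891 and 1727 CPM, against 280 and 395, and Sp9, a relative of Sp8, 1207 and 782, against 85.0 and 83.2. Foxp2 had 88.8 and 99.0 CPM, against 4.09 and 9.88. The lower gene was Nr2e1, a nuclear receptor that maintains stem cells, with 2 and 7 UMIs.

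Of 31 commitment factors of young neurons, 22 were measured in library 1, with 13 higher and none lower, and 23 in library 2, with 10 higher and 1 lower. Higher genes made up 8.67% and 8.06% of all measured genes, and lower ones 25% and 21.2%. Sox4 had 2545 and 2422 CPM, against 1068 and 868, and Sox11 2421 and 3163, against 996 and 1351. Bcl11a, a zinc finger factor of interneuron migration, had 360 and 336, against 51.8 and 62.1. Of 23 neuronal RNA-binding protein genes, 19 were measured in library 1, with 11 higher and 1 lower, and 20 in library 2, with 9 higher and 1 lower. Elavl3 had 712 and 717 CPM, against 163 and 189, and the splicing regulator gene Rbfox2 349 and 283, against 35.0 and 50.2.

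Synaptic genes went both ways, with 5 higher and 7 lower of 28 measured in library 1 and 9 higher and 4 lower of 29 in library 2, from a list of 46. Over all measured genes 25% and 21.2% were lower and 8.67% and 8.06% higher, so the lower counts of synaptic genes did not exceed those shares. Nrxn3, a presynaptic adhesion molecule, had 914 and 918 CPM, against 41.6 and 94.3.

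The genes with the lowest ratios had almost no RNA in the chosen cells. Hes1, a Notch target that keeps progenitors undifferentiated, had 9 and 7 UMIs in all the chosen cells, or 13.1 and 9.49 CPM, against 252 and 231 CPM in non-neuroblast cells. Its ratio was 0.0520 (0.0237 to 0.0988) and 0.0411 (0.0165 to 0.0849). Sparc, a matrix protein of glia and vessels, had 8 and 2 UMIs, and Sdc4, a heparan sulfate proteoglycan, 6 and 1. Cyr61, a secreted matrix protein also induced by growth signals, had 5.82 and 9.49 CPM, against 153 and 130.

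The other leading lower genes rested on 10 UMIs or fewer in the chosen cells of either library. They were Cldn11 and Mal, which belong to myelin, Lgi4, Eva1a, the Rac exchange factor gene Prex2, the glutamate receptor gene Grm3, the monoamine oxidase gene Maob, the growth factor receptor gene Pdgfrb, Stxbp6 and Prc1, a mitotic spindle protein. With counts this small the intervals are wide. For Maob, with 1 UMI in each library, the ratio was 0.0707 (0.00178 to 0.399) and 0.0620 (0.00156 to 0.349).

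All 35 stem cell and astrocyte genes outside the rule were 2-fold lower in library 1, and 34 of 35 in library 2, with medians of -2.96 and -2.76. Lower genes were 25% and 21.2% of all measured genes. Apoe, which carries lipids, had 1529 and 927 CPM, against 10721 and 5772 in non-neuroblast cells. The metallothionein gene Mt1 had 716 and 525 CPM, against 5079 and 2669. The dividing neuroblasts, which are under the same glial limit, had 1376 and 793 CPM of Apoe and 722 and 478 of Mt1. How much of it came from free RNA was not tested.

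Progenitor and Notch genes were mostly lower. Of 33 progenitor genes, 21 of the 30 measured in library 1 were lower and 1 higher, and 20 of 29 were lower and 1 higher in library 2. Lower genes made up 25% and 21.2% of all measured genes, and higher ones 8.67% and 8.06%. Egfr, a growth factor receptor of activated stem cells, had 20.4 and 23 CPM, against 164 and 104. The higher one was Pou3f4, with 150 and 133 CPM, against 62.2 and 59.1. Of 26 Notch pathway genes, 22 were measured, with 12 lower and 2 higher in library 1 and 11 lower and 1 higher in library 2. Hes5 had 674 and 1131 CPM, against 2304 and 3270. Maml3, a coactivator of Notch targets, was higher, with 62.6 and 58.3 CPM, against 10.8 and 12.3.

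Immediate early genes, which are induced quickly by stimulation, were lower. Of 40, 37 were measured in library 1, with 26 lower, and 35 in library 2, with 25 lower, and none was higher. Among all measured genes 25% and 21.2% were lower. Fos had 250 and 194 CPM, against 1739 and 1409 in non-neuroblast cells, and 274 and 174 in dividing neuroblasts.

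Energy genes differed by pathway. Of 21 glycolysis genes, 15 of 20 measured were lower and 1 higher in library 1, and 10 of 20 lower in library 2, with medians of -1.35 and -1.07. Of 30 fatty acid oxidation genes, 17 of 27 and 12 of 27 were lower. The 51 nuclear genes of oxidative phosphorylation had 1 lower in each library and medians of -0.16 and -0.14, beside -0.19 and -0.15 over all measured genes, and none of the 13 mitochondrial genes was past 2-fold. Of 84 ribosomal protein genes, 81 were measured and none passed 2-fold, with medians of 0.22 and 0.02. Of 32 cholesterol and fatty acid synthesis genes, 8 were lower in library 1, and 9 were lower and 1 higher in library 2, near the 25% and 21.2% of all measured genes.

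Of 42 interferon response genes, 29 were measured in library 1, with 16 lower, and 14 in library 2, with 6 lower. Of 22 genes of antigen presentation, 7 of 16 measured were lower in library 1 and 6 of 14 in library 2, B2m among them with 27.7 and 17.6 CPM, against 116 and 51.4. Cell survival genes had 5 higher and 3 lower of 25 in library 1 and 4 higher and 2 lower of 25 in library 2. Among all measured genes 8.67% and 8.06% were higher and 25% and 21.2% lower, the background for the interferon and antigen presentation lists too. The lower counts of the survival genes lay below it.

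Dividing neuroblasts share the neuroblast rule and differ from the chosen cells by their mitosis genes, so this comparison describes what goes with that criterion. In library 1, 95 of 2613 measured genes (3.64%) were higher in neuroblasts with little cell cycle RNA and 191 (7.31%) lower. In library 2, 53 of 3485 (1.52%) were higher and 228 (6.54%) lower. Of 2571 genes measured in both, 25 were higher in both, which is 32.1% of the 78 of library 1 and 61.0% of the 41 of library 2, and 136 were lower in both (71.2% of 191 and 96.5% of 141). None was past 2-fold in opposite directions. When cells were thinned to equal depth, 27 genes were higher and 53 lower in library 1 and 9 higher and 60 lower in library 2.

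The genes highest relative to dividing neuroblasts included regulators of transcription and splicing. Meg3, a long noncoding RNA of neurons, had 1828 and 1407 CPM, against 420 and 466 in dividing neuroblasts, and log2 ratios of 2.12 and 1.59. After thinning these were 1.47 and 1.05. Runx1t1 had 157 and 119 CPM, against 42.3 and 39.1, with log2 ratios of 1.90 and 1.61, the value in library 2 being 0.92 after thinning. Myt1l had 119 and 103 CPM, against 28.2 and 34.5. Srrm4, the splicing factor of neuronal microexons, had 147 and 164, against 57.9 and 65.4.

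The histone demethylase gene Kdm7a had log2 ratios of 1.41 and 1.65 over dividing neuroblasts and Zswim6 1.46 and 1.29. Pbx3, a homeobox cofactor of olfactory interneurons, had 1.37 and 1.56, and Rem2 1.32 and 1.75. After thinning Pbx3 had 0.66 in library 1, and Rem2 had 0.67 in library 1 and 0.31 in library 2, below 2-fold. Insm1, a zinc finger factor of newly born neurons, was lower, with 65.5 and 40.7 CPM, against 252 and 173.

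Mitosis genes outside the rule had the lowest median among the lists that the rule did not use. Of 53 genes of G2 and M phase, 35 were measured against dividing neuroblasts in library 1 and 45 in library 2, and all of those were 2-fold lower, with medians of -3.46 and -3.39. They are transcribed in the same phases as the mitosis genes of the rule, which separate the 2 classes. The list held 14254 and 22975 UMIs in dividing neuroblasts, against 2376 and 2939 in the chosen cells. Its members thus reached the minimum of 50 UMIs mainly through the dividing cells. That all were lower was largely set by the rule and this minimum and is no separate result. Gas2l3, a cytoskeletal protein of cell division, had 1 UMI in each library, or 1.46 and 1.36 CPM, against 93.9 and 94.4 CPM. The spindle genes Cenpe, Kif11, Prc1, Spc25 and Tpx2 and the cohesin protectors Sgol1 and Sgol2a had log2 ratios between -5.73 and -4.02. Hmgb2, a chromatin protein abundant in cycling cells, was still present, with 559 and 754 CPM, against 4891 and 4655.

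Few GABA neuron genes passed 2-fold between the chosen cells and dividing neuroblasts, but few were measured. Of all genes in this comparison, 3.64% and 1.52% were higher and 7.31% and 6.54% lower. Among 7 genes these shares also make few calls, so the small count is no trait of this list. The 7 GABA neuron genes measured had medians of 0.03 and 0.15, with none past 2-fold in library 1 and 1, Gad1, higher in library 2, and Dlx1 had 763 and 617 CPM, against 770 and 638. The microtubule list had medians of 0.42 and 0.34, with 3 higher and 1 lower of 31 in library 1 and none higher and 1 lower in library 2. Stmn1, a stathmin of both dividing and young neuronal cells, lay the other way, with 4615 and 4960 CPM, against 6840 and 6624. Of the guidance genes, 4 of 10 measured were 2-fold higher in library 1 and 5 of 11 in library 2, with none lower. They had medians of 0.83 and 0.79, beside medians of 0.08 and 0.03 over all measured genes, of which 3.64% and 1.52% were higher. Robo2 was one of the higher guidance genes, with 166 and 131 CPM, against 70.5 and 61.8. A gene could reach the count minimum through 1 class alone. Robo2 did so in library 1 through the chosen cells, with 114 UMIs, against 45 in dividing neuroblasts. Most of the 42 guidance genes were not measured, so these counts do not describe the whole list. Summed over all 42, with no minimum, the list had 2028 and 1804 CPM, against 1340 and 1214.

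RNA of DNA replication was lower than in dividing neuroblasts but not gone. Of 46 S phase genes, 11 of 14 measured were lower in library 1 and 19 of 28 in library 2, with none higher. The list held 2414 and 4351 UMIs in dividing neuroblasts, against 1051 and 1209 in the chosen cells. Its members thus reached the count minimum mainly through the dividing cells, which favours calls of lower genes. Summed over all 46 genes, with no minimum, the list had 1530 and 1639 CPM, against 3779 and 3951 in dividing neuroblasts. Lower genes made up 7.31% and 6.54% of all genes measured against dividing neuroblasts. Pcna, the replication clamp, had 80.1 and 94.9 CPM, against 235 and 239 in dividing neuroblasts and 218 and 272 in non-neuroblast cells. Dut, which keeps uracil out of DNA, had 173 and 174 CPM, against 493 and 493 in dividing neuroblasts. Mcm7, a subunit of the replicative helicase, had 128 and 126 CPM, against 111 and 137, and did not differ by 2-fold.

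After thinning to 2000 UMIs, 81 of 185 chosen cells in library 1 held 3 or more S phase UMIs (43.8%, interval 36.5 to 51.3%), and 94 of 194 in library 2 (48.5%, 41.2 to 55.7%). Dividing neuroblasts had shares of 75.5% and 70.0%, cycling cells without neuroblast genes 88.4% and 92.4%, and glial gene cells 27.9% and 35.9%. Cells with oligodendrocyte genes had 22.7% and 25%. Cells without neuroblast, glial or mitosis genes above the limits had 50.6% and 73.4%, and all non-neuroblast cells 44.7% and 64.5%. The chosen cells thus lay between glial cells and dividing neuroblasts. In library 1 their share was also near that of all non-neuroblast cells, so this place is not particular to them. Unthinned, 68.9% and 74.6% of the chosen cells had 3 such UMIs. Whether free RNA sets the level in the chosen cells was not tested, and a list share is no call of a cycle phase.

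The G2 and M phase list outside the rule had a median of 5 and 6 thinned UMIs in the chosen cells, with highest values of 24 and 29. Glial gene cells had medians of 4 and 6, dividing neuroblasts of 38.5 and 35, and cycling cells without neuroblast genes of 38 and 41.

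**Figure D3:**
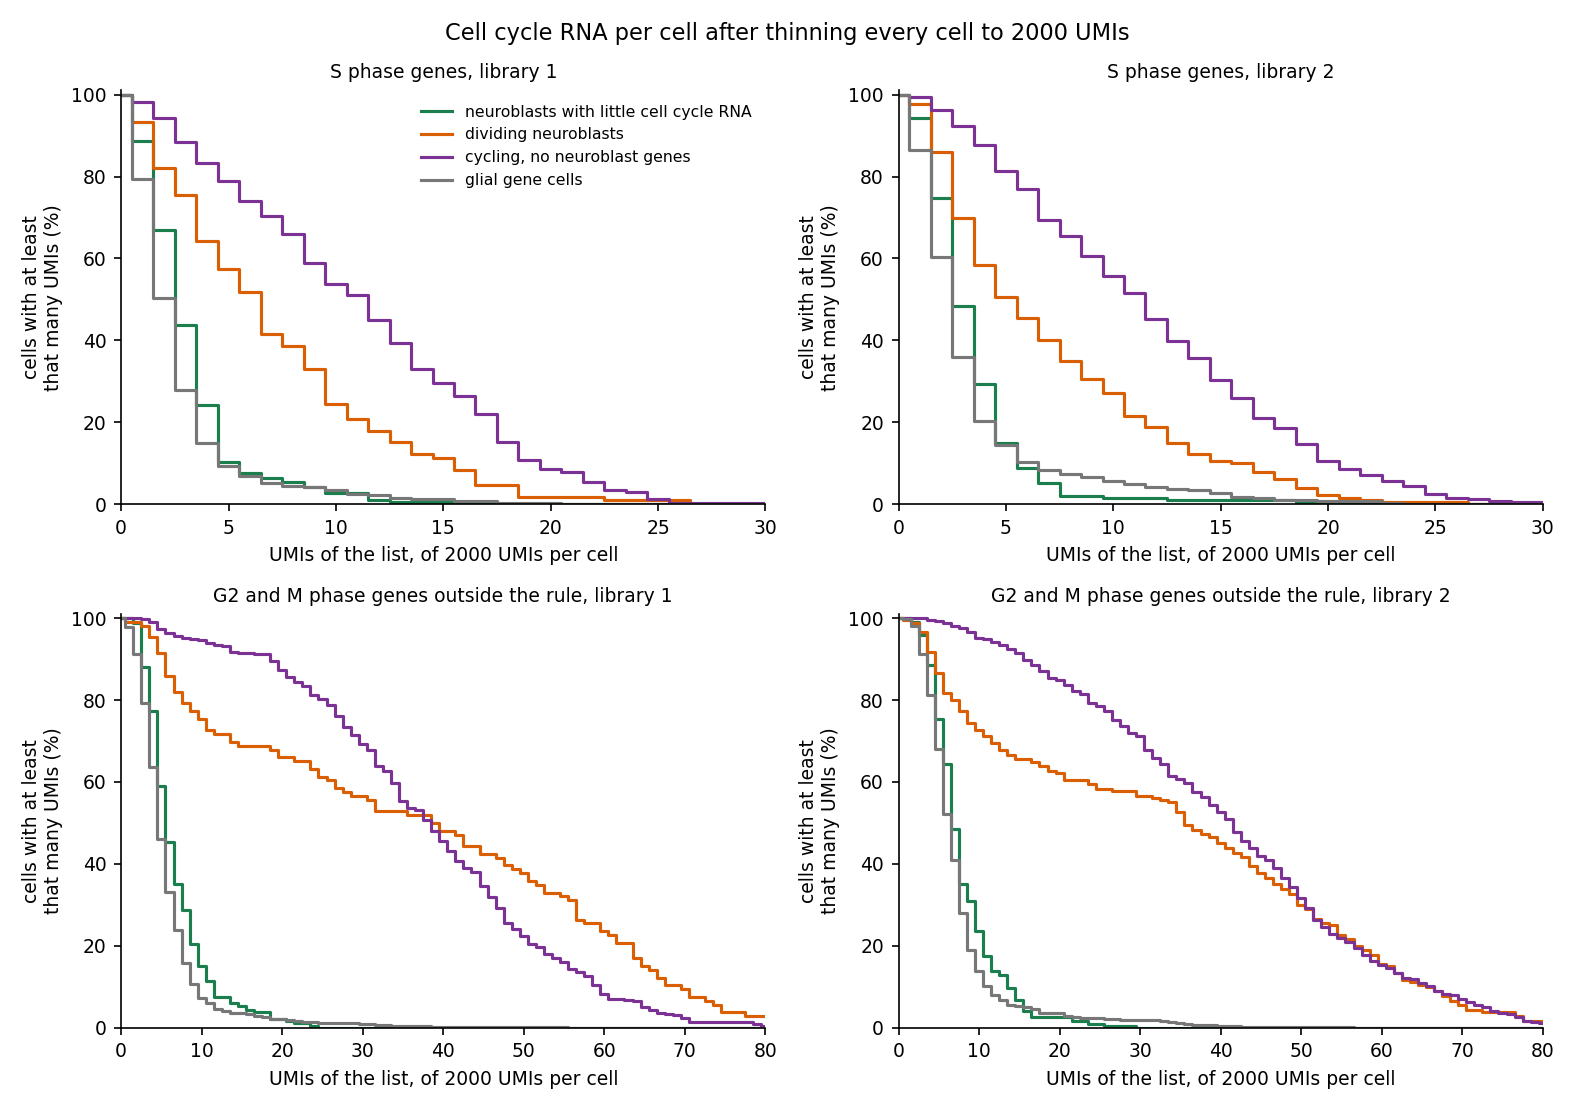
Share of cells (percent, y axis) with at least the given number of UMIs (x axis) of the S phase list and of the G2 and M phase list outside the rule, each cell thinned to 2000 UMIs, for 4 classes in library 1 and library 2. For G2 and M phase RNA the neuroblasts with little cell cycle RNA run with the glial gene cells; for S phase RNA they lie between glial gene cells and dividing neuroblasts.

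Genes tied to leaving the cell cycle went in both directions. Of 21, 5 were higher and 9 lower than in non-neuroblast cells in library 1 and 2 higher and 9 lower in library 2. All measured genes had 8.67% and 8.06% higher and 25% and 21.2% lower, and the higher count of library 2 lay near that share. Ccnd2, a cyclin of neurogenic progenitors that neuroblasts retain, had 4405 and 4656 CPM, against 2010 and 2531 in non-neuroblast cells and 4096 and 4556 in dividing neuroblasts. Btg1, an antiproliferative gene, had 2140 and 1907 CPM, against 502 and 441 in non-neuroblast cells and 1315 and 1122 in dividing neuroblasts. Its relative Btg2 was lower, with 96.1 and 82.7 CPM, against 815 and 592 in non-neuroblast cells. The inhibitor gene Cdkn2c had 45.1 and 54.2 CPM, against 282 and 222 in dividing neuroblasts.

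Chromatin genes sat at 0.03 and -0.09 against non-neuroblast cells and at -0.64 and -0.61 against dividing neuroblasts. In the latter comparison 8 of 24 were lower in library 1 and 8 of 28 in library 2, beside 7.31% and 6.54% of all measured genes. Hmgn2, a nucleosome-binding protein, had 3434 and 3827 CPM, against 8171 and 7925 in dividing neuroblasts. Actl6b, the subunit that enters the chromatin remodelling complex when neurons leave the cycle, had 100.4 and 92.2 CPM, against 7.30 and 8.13 in non-neuroblast cells. The demethylase gene Kdm5b had 148 and 160, against 41.1 and 33.1.

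The chosen cells varied among themselves along the neuroblast sum. The sum lay between 10 and 20 in 16 cells of library 1 and 25 of library 2, between 20 and 40 in 77 and 64, and at 40 or more in 116 and 116. The low bin of library 1 has under 20 cells, and the bins are cut on the genes of the rule. Hes5 was at 2331, 567 and 404 CPM across the 3 bins of library 1 and at 2798, 1122 and 635 CPM in library 2, so its level was highest in the bin with the fewest neuroblast transcripts. That bin held 175 of the Hes5 UMIs of library 1, beside 141 and 147 in the higher bins, and 324 of those of library 2, beside 265 and 245. Tiam2 ran the other way, at 187, 411 and 443 CPM in library 1 and 69.1, 241 and 373 in library 2.

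Summed cell cycle lists were also highest in the low bin, and fate genes lowest there. The G2 and M phase list outside the rule was at 7100, 3425 and 2730 CPM in library 1 and 5647, 3871 and 3554 in library 2. The S phase list was at 3024, 1694 and 1109 CPM in library 1 and 2400, 1550 and 1465 in library 2. The Notch list was at 3104, 1171 and 1098 CPM in library 1 and 3480, 1753 and 1283 in library 2. Without Hes5 the Notch list was at 773, 604 and 693 CPM in library 1 and 682, 631 and 648 in library 2, so its order across the bins rests on Hes5. Olfactory interneuron fate genes were at 4583, 5800 and 6442 CPM in library 1 and 3393, 5442 and 5911 in library 2. The cells of the low bin had the highest median depth, 4359.5 and 4177 UMIs, and its part in these differences was not tested.

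Few genes of the chosen cells differed by 2-fold between the libraries. Of 2620 measured genes, 16 (0.611%) were 2-fold higher in library 1 than in library 2 and 6 (0.229%) lower, and the median log2 ratio was 0.00. After thinning, 6 and 3 of 1403 measured genes passed. No list of the neuronal programme had a member past 2-fold except the olfactory fate list, with 1 each way. At the shares over all measured genes few calls would fall in lists this short, so this is no trait of these lists. With 1 library each, a difference between libraries, between animals and between ages cannot be told apart.

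Pax6, a transcription factor of progenitors and of the dopaminergic lineage of the olfactory bulb, was lower in library 1. It had 108 CPM in library 1 and 323 in library 2, a ratio of 0.334 (0.254 to 0.435), from 74 UMIs in 29 cells and 238 UMIs in 67 cells. Few cells held much of it, since 2 cells of library 1 and 15 of library 2 had 5 or more UMIs and carried 55.4% and 64.3% of all its UMIs. The largest cells had 29 and 19. Without the largest cell in each library the log2 ratio of Pax6 was -2.18, against -1.58 with it, and with a stricter glial limit of 5 it was -1.15. Leaving out the largest cell was chosen after the data were seen.

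The same direction was seen outside the chosen cells, with 204 CPM of Pax6 in library 1 and 524 in library 2 in dividing neuroblasts and 78.7 and 203 in non-neuroblast cells. Sp8 and Pax6 were found together in 14 and 38 of the chosen cells. Fabp7, a lipid-binding protein of radial glia, and Tle1, a corepressor that works with Hes proteins, were also lower in library 1, with 49.5 and 108 CPM for Fabp7 and 65.5 and 133 for Tle1. Fabp7 had a log2 ratio of -1.13 that was -0.50 with a mitosis limit of 1 and -0.29 after thinning. E130114P18Rik, Zcchc10, Gm10146, Mier1 and Pds5a completed the 8 lowest ratios.

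Mid1, an X-linked ubiquitin ligase of microtubules, was higher in library 1 than in library 2 in the chosen cells and outside them. The chosen cells had 199 CPM in library 1 and 50.2 in library 2, a ratio of 3.98 (2.75 to 5.88), with 95 and 33 cells holding a UMI. Non-neuroblast cells had 218 and 54.0 CPM and dividing neuroblasts 186 and 50.9, and the direction was the same there. Dusp4, a phosphatase of the MAP kinase pathway, had 106 and 33.9 CPM in the chosen cells and Jmjd8 84.4 and 28.5.

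Calb2, the calretinin of a class of olfactory interneurons, had 97 UMIs in library 1 and 2 in library 2, the highest ratio between the libraries. In library 1, 93 of the 97 came from 1 cell of 3554 UMIs, which also held 2 UMIs of Dcx, 1 of Stmn2 and 4 of Snap25. Without the largest cell the log2 ratio was 2.10, against 5.70 with it, and with a neuroblast limit of 20 it was 0.61. Calb2 UMIs were present in 5 and 2 cells.

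Mbp, a myelin gene, Ptgds, which encodes a prostaglandin synthase, and Sparcl1, an astrocyte matrix protein, were higher in library 1. Mbp had 72.8 CPM in library 1 and 12.2 in library 2, in 45 and 9 cells. After thinning, Mbp was found in 13.5% and 2.58% of the chosen cells and in 16.3% and 2.66% of glial gene cells, whose median depths were 2883 and 3274 UMIs in the chosen cells and 3840.5 and 3792 in glial gene cells. These shares were no higher than in that other class and are not read as expression, and free RNA was not measured. Ptgds had 72.8 and 13.6 CPM, in 43 and 7 cells, and Sparcl1 had 72.8 and 27.1 CPM, in 47 and 18 cells. Library 1 also held 104 cells with oligodendrocyte genes and library 2 held 9, and their part in the result was not tested.

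**Figure D4:**
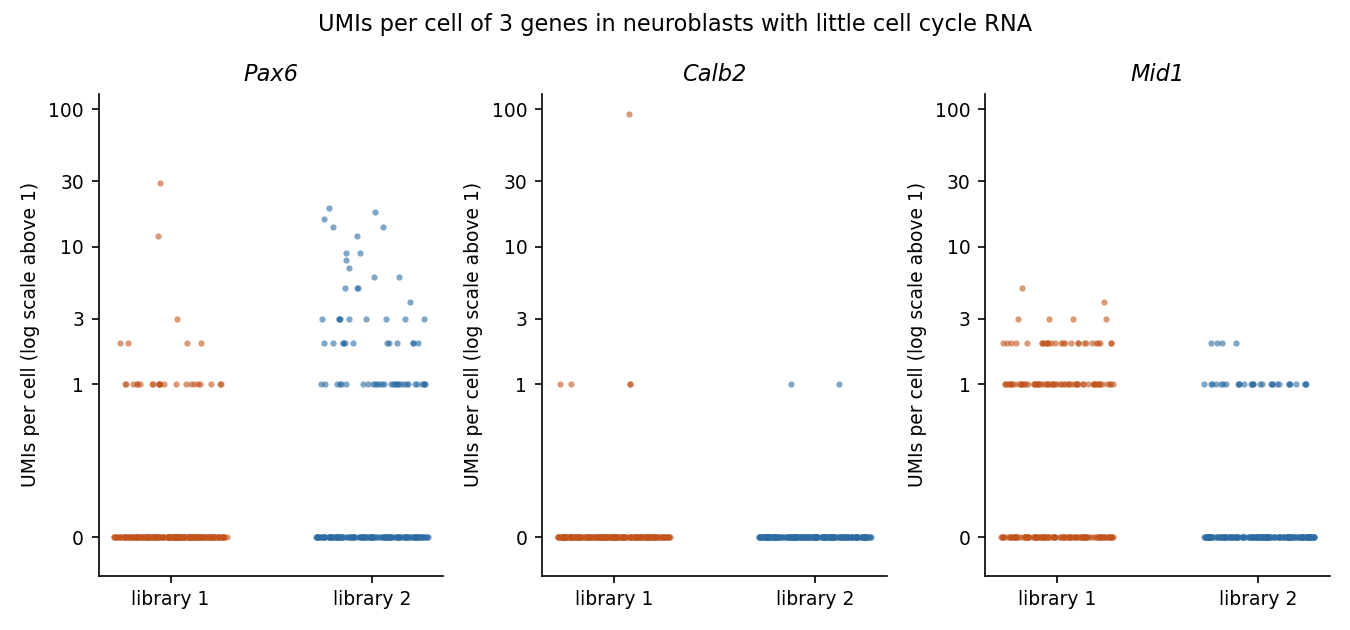
UMIs per cell of Pax6, Calb2 and Mid1 in the neuroblasts with little cell cycle RNA of library 1 (209 cells) and library 2 (205 cells), each point being 1 cell. The Calb2 value of library 1 rests on 1 cell with 93 UMIs, Pax6 on few cells with 5 or more, while Mid1 UMIs are spread over many cells.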

How the data were processed

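The measurement was single-cell RNA sequencing of 2 libraries held in 1 matrix. The deposited matrix held unnormalized UMI counts of 27998 genes, of which 18470 had a UMI. Per the submitters' processing notes, Cell Ranger 2.0.0 and the builds GRCm38.p3 and mm10 were used. The cell calling, any doublet removal and the merging of both libraries were not given in the sources used here. Cells were assigned to libraries by the number at the end of the barcode.

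The members and gene lists were chosen with earlier results of these data known. UMIs were summed over the cells of a class in each library and scaled to CPM. Ratios have exact conditional binomial intervals, levels exact Poisson and shares exact Clopper-Pearson intervals (95%). A sum of 0 was set to 3 counts. Genes needed 50 UMIs on one side, and 2-fold was called. The script was tested on simulated data.

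Named genes were the 14 highest and 14 lowest ratios over non-neuroblast cells (by the smaller size of both libraries, outside the 18 genes of the rule), the 8 highest and lowest over dividing neuroblasts and between libraries, and, of 25 lists, the 4 members with most UMIs and those past 2-fold in both libraries; some of these are not reported here. Clusters were not used, and a class is named by its rule. Scrublet was run with an expected rate of 1.5%, and its marked cells were kept. The tools were Python 3.11.15, numpy 2.4.6, pandas 2.3.3, scipy 1.17.1, scanpy 1.11.5 and matplotlib 3.10.9. Alternatives changed the limits of the rule, the scaling, the weighting, the depth and the count minimum.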

Additional observations from a re-analysis of the deposited data

Results flagged for a closer look

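The medians of 6 gene lists lay on opposite sides of 0 in the libraries, which is why they are given here; none of these differences was tested. Against non-neuroblast cells, the cell adhesion list had a median log2 ratio of -0.19 in library 1 and 0.81 in library 2, from 18 measured genes each, and -0.29 in library 2 after thinning. With other count minimums the median of library 1 was 0.0092, 1.35 and 1.55, on the same side of 0 as that of library 2. In the same comparison the chromatin protein list had 0.034 and -0.089. Against dividing neuroblasts, the cell survival and death list had -0.046 and 0.10, the glycolysis list 0.078 and -0.039, the nuclear oxidative phosphorylation list 0.024 and -0.066, and the stem cell and astrocyte list outside the rule 0.053 and -0.023. All but the cell adhesion list were within 0.11 of 0 in both libraries.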

How the results depend on the processing

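No paired analysis was possible because each age had 1 library and no label ties a library to an age. No 2-fold call of a named gene turned to the opposite direction under any alternative run. Of 124 alternative counts of genes 31 moved by over 1.5 times, and 28 of 1320 log2 ratios of named genes, 48 of 1546 list medians and 7 of 24 shares left their interval. Of the 31 counts, 18 moved with another count minimum and 6 with thinning, which change how many genes are measured by construction. Of the 28 log2 ratios, 12 moved with thinning and 6 with equal weight for each cell. A count minimum leaves every ratio as it is, so its alternatives among the 1320 could not move. Of the 48 medians 15 and 13 moved with thinning and equal weight. The cause of these moves was not tested.

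The sign of a list median changed in 102 alternatives, 93 of them for medians within 0.15 of 0. The other 9 were guidance genes over non-neuroblast cells in library 1 (-0.038 with a glial limit of 5, against 0.16), cell adhesion (3 in library 1 with other count minimums and 1 in library 2 with thinning, as given above), and 4 lists of library 2 with no count minimum. Those 4 were interferon response (0.50, against -0.66) and antigen presentation (0.25, against -0.79) over non-neuroblast cells, and fatty acid oxidation (0.015, against -0.23) and antigen presentation (0.58, against -0.18) over dividing neuroblasts. In library 2, 23 of 42 interferon and 7 of 22 antigen presentation genes had no UMI in the chosen cells and were set to 3 counts. The summed levels stayed lower than in non-neuroblast cells, at 152 against 308 CPM for interferon and 603 against 858 CPM for antigen presentation. These sign changes are therefore not read as a direction.

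Against non-neuroblast cells, with no count minimum 5898 genes were called higher and 2826 lower in library 1 and 6164 higher and 2431 lower in library 2. A sum of 0 at 3 counts makes calls of genes without a UMI on one side when no minimum is set, here and in the comparisons below. With 50 UMIs on one side after scaling to the smaller summed total, 404 and 357 were higher and 489 and 397 lower. Against dividing neuroblasts, thinning left 27 and 9 higher and 53 and 60 lower, a minimum of 20 UMIs gave 356 and 195 higher and 431 and 462 lower, and no minimum 1955 and 2232 higher and 2167 and 1768 lower. A glial limit of 5 gave 38 and 35 higher and weighting each cell equally 54 and 27 higher; the cause was not tested. TMM scaling moved the median log2 ratio of all genes to -0.08 in library 2, against 0.03 without it.

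Between the libraries, higher genes were 9 with a glial limit of 5, 6 after thinning, 118 with a minimum of 20 UMIs and 1810 with none. Lower genes were 3 with a mitosis limit of 1, 3 without Scrublet doublets, 3 after thinning, 78 with a minimum of 20 UMIs and 1457 with none. The share of cells was 6.52% in library 1 and 7.08% in library 2 with a glial limit of 5, and 7.71% in library 2 with a mitosis limit of 1. The share with S phase RNA was 67.0% and 74.7% with at least 2 UMIs and 68.9% and 74.6% without thinning.

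The median depth of 2883 and 3274 UMIs limits what a single cell shows: a mitosis transcript present at a low level cannot be told apart from none. Genes below about 50 UMIs in the 686944 and 737679 UMIs of the chosen cells have wide intervals.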

Other observations

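Eomes, a factor of glutamatergic progenitors that was chosen after its values were seen, had no UMI in library 1. The chosen cells of library 1 had 0 UMIs (which allows up to 4.37 CPM), and the 6 UMIs of library 2, each in a different cell, made 8.13 CPM (interval 2.98 to 17.7). Cycling cells without neuroblast genes had 0 UMIs of Eomes in library 1, which allows up to 1.02 CPM, against 7.41 CPM in library 2 (5.43 to 9.89). Cells without neuroblast, glial or mitosis genes above the limits had 0 UMIs in library 1, up to 1.66 CPM, and 20.9 CPM of Eomes in library 2 (15 to 28.4). With 1 library each, the difference was not tested.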
